A study of Rattus norvegicus with 15 samples.

Results

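The insulin and IGF signalling genes described here are 10 of the 28914 genes counted in rat islets of Langerhans: the ligands Igf1 and Igf2, the binding proteins Igfbp3, Igfbp5 and Igfbp7, the receptors Insr and Igf1r, the adaptors Irs1 and Irs2, and the kinase gene Akt2. They were chosen by symbol, with earlier results of these data known, so counts of called members are a description. All 10 were in the count table and passed the filter on low counts. Islets came from Lewis rats whose labels give an age of 4-5 weeks with no time point, and RNA was collected 10 weeks after surgery. The groups were 3 rats with higher glucose and 7 rats with lower glucose after 90% pancreatectomy (Px), an operation that leaves a small remnant of the gland, and 5 rats with a sham operation (Sham). The average blood glucose of each rat before collection, given without a unit, was 416 to 464 in higher-glucose Px, 104 to 211 in lower-glucose Px and 88 to 96 in Sham. Higher- and lower-glucose Px were told apart by a boundary of 300, and the labels do not explain the mark "Inc_YES" in the titles. Each library was taken as 1 rat; nothing in the labels says whether tissue was pooled, so p-values measure the spread between these libraries.

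Insulin and the IGFs are related hormones that bind related receptor tyrosine kinases. The activated receptors recruit adaptor proteins such as IRS1 and IRS2, which pass the signal to PI3-kinase and AKT and from there to mTORC1, GSK3 and the FOXO factors. IGF binding proteins hold IGFs in the tissue fluid and can limit or prolong their action. In beta cells of mice, loss of Irs2 is known to limit beta cell mass, and IGF1 is made by many stromal and myeloid cells as well as by the liver.

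Library totals were 22.29 to 33.42 M counts in higher-glucose Px, 19.11 to 31.64 M in lower-glucose Px and 12.21 to 18.43 M in Sham. Beta cell genes were present in every library, as the islet label says, beside genes of other cell types. The 11 beta cell genes in the table took 3.16 to 9.24% of counts in Px and 10.9 to 24.1% in Sham, and 16 acinar (digestive enzyme) genes took 18.6 to 45.2% in Px and 0.998 to 14.2% in Sham. None of the markers of any list was at 0 in all libraries of a group. Fibroblast and stellate cell genes, 12 of 12 higher in Px, summed to 1424 to 7268 CPM in Px and 177 to 475 CPM in Sham. Macrophage genes, 12 of 12 tested higher, summed to 367 to 1059 CPM in Px and 24.1 to 53.7 CPM in Sham. Endothelial genes, 7 of 9 higher, summed to 709 to 1106 CPM in Px and 462 to 713 CPM in Sham. Their rise depended on the scaling: they took 0.0452 to 0.102% of counts in Px and 0.0667 to 0.0902% in Sham. With library totals alone as the scaling, 3 of the 9 were higher and 1 lower. CPM are counts per M on library sizes scaled by TMM, and in bulk RNA fewer cells of a type and less RNA per cell cannot be told apart.

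Igf1, which encodes the growth factor IGF1, was the member with the largest difference between the operated and sham groups. Its level was 35.6, 36.5 and 29.9 CPM in higher-glucose Px, 23, 37.8 and 46.4 CPM (lowest, median and highest) in lower-glucose Px, and 1.85, 4.61, 4.78, 2.14 and 2.24 CPM in Sham. Every Px library lay above every Sham library, and the Sham values rested on 35 to 109 counts each. The mean was 35.6 ± 6.41 CPM in Px and 3.13 ± 1.44 CPM in Sham (SD, n = 10 and 5), a log2 fold change of 3.50 ± 0.24 (SE; edgeR quasi-likelihood test, Benjamini-Hochberg adjusted p = 1.31e-08), or 11.3-fold. Of 15661 genes tested, 761 had a larger log2 fold change. The gene lies on chromosome 7 from 28412198 to 28486609 on the plus strand, in coordinates of the count table, for which no source names a genome build.

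Igf2, the related growth factor gene that lies beside Ins2, went the other way. It stood at 27.2, 30.9 and 38.9 CPM in higher-glucose Px, at 24.2, 26.7 and 33.5 CPM (lowest, median and highest) in lower-glucose Px, and at 37.9, 36.7, 47.6, 50.1 and 51.5 CPM in Sham. In 9 of 10 Px libraries it was below the lowest Sham library, and the exception was higher-glucose Px replicate 19. The mean was 29.2 ± 4.60 CPM in Px and 44.8 ± 6.95 CPM in Sham, a log2 fold change of -0.62 ± 0.12 (edgeR quasi-likelihood test, Benjamini-Hochberg adjusted p = 0.000178). Scaled by 8 endocrine granule genes, the log2 fold change of Igf2 was -0.0221 (edgeR quasi-likelihood test, adjusted p = 0.863). With the fibroblast score in the model it was -0.111 (adjusted p = 0.885), so the call depended on these choices. The fit with the fibroblast score called 1813 of 15661 genes, beside 10107 in the main fit, so its loss is not particular to Igf2. The gene spans 215828102 to 215846911 on the minus strand of chromosome 1 and shares 258 exon bases with AC098563.1 on the same strand, so reads there could be split between them.

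Promoter windows of both ligand genes, 250 bases before to 50 after a RefSeq start in the build GRCr8, are printed because the 2 genes moved in opposite directions. Igf1 is chr7:24172282-24172581 on the plus strand, and the Igf2 windows 1 and 2 are chr1:207250426-207250725 and chr1:207253931-207254230 on the minus strand. Capitals mark CAAAACA (an insulin response element) in Igf1 and GGGCGG or its reverse complement CCGCCC (a GC box) in Igf2.
Igf1: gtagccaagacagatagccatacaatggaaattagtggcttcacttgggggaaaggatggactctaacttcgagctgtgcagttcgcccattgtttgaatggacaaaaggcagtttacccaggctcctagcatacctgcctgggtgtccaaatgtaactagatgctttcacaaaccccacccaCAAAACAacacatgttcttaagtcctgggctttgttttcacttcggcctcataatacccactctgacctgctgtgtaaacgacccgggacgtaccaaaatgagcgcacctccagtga
Igf2 window 1: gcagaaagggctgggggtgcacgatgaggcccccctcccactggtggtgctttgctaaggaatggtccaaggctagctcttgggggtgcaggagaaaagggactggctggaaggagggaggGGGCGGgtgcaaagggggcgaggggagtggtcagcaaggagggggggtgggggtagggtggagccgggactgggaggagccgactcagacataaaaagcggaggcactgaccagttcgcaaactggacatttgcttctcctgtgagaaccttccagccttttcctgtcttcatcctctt
Igf2 window 2: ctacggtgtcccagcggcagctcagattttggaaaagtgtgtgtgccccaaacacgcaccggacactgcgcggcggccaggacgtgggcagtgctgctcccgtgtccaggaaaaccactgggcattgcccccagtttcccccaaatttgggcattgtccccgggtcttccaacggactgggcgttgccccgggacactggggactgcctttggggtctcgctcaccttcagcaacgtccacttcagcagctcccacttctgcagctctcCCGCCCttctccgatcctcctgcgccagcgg
Both strands were searched for 4 motifs. Of 33469 RefSeq windows of this length, 33.06% held the GC box GGGCGG, 14.22% held the TATA box TATAAA, 3.78% held the FOXO motif GTAAACA and 6.28% held the insulin response element CAAAACA. The Igf1 window was 48.3% G and C, and the Igf2 windows were 60.7% and 63.3%, beside a median of 51.7% over all windows. These letter matches are a description and not evidence of binding.

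The 3 binding protein genes were all called higher in Px with TMM scaling, by very different amounts, and the calls of Igfbp3 and Igfbp7 were lost and their sign turned with library totals alone (-0.0346 and -0.117, adjusted p = 0.911 and 0.684 by the edgeR quasi-likelihood test). Igfbp5, which encodes a binding protein of the extracellular matrix and tissue fluid, had 92.7, 88.6 and 148 CPM in higher-glucose Px, 66.0, 115 and 159 CPM (lowest, median and highest) in lower-glucose Px, and 13.9, 16.2, 13.04, 17.5 and 19.1 CPM in Sham. All Px libraries were above all Sham libraries. The means were 114 ± 32.5 CPM in Px and 15.9 ± 2.52 CPM in Sham, a log2 fold change of 2.84 ± 0.22 (edgeR quasi-likelihood test, adjusted p = 2.85e-08), or 7.17-fold.

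Igfbp3, whose product is the main carrier of IGFs in blood, had 17.6, 18.1 and 21.3 CPM in higher-glucose Px, 12.7, 20.1 and 26.1 CPM (lowest, median and highest) in lower-glucose Px, and 10.6, 11.5, 14.4, 13.9 and 14.1 CPM in Sham. In 8 of 10 Px libraries it was above the highest Sham library, and lower-glucose replicates 11 and 14 lay within the Sham range. The log2 fold change was 0.56 ± 0.15 (edgeR quasi-likelihood test, adjusted p = 0.00312).

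Igfbp7, a protein with only weak affinity for IGFs that is abundant in vessels and stroma, was the most abundant member per length. It had 506, 430 and 688 CPM in higher-glucose Px, 362, 542 and 600 CPM (lowest, median and highest) in lower-glucose Px, and 284, 392, 385, 495 and 299 CPM in Sham. The groups overlapped, with 6 of 10 Px libraries above the highest Sham library, and the log2 fold change was 0.49 ± 0.15 (edgeR quasi-likelihood test, adjusted p = 0.0112). Its end shares 113 bases with Polr2b on the opposite strand. No source used here gives the strand setting of the counting, so reads of the 2 genes there cannot be told apart.

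Beside these rises, fibroblast and macrophage genes were higher in Px as given above, and 7 of 9 endothelial genes were higher with TMM scaling. With the fibroblast score as a covariate the log2 fold change was 1.81 for Igfbp5 (adjusted p = 0.0574), 0.0516 for Igfbp7 (0.958) and -0.191 for Igfbp3 (0.818), each by the edgeR quasi-likelihood test. That fit called 1813 of all 15661 genes, beside 10107 in the main fit. Igf1 stayed called with the fibroblast score (2.45, adjusted p = 0.0146) and the acinar score (3.13, 5.35e-05). With the acinar score Igfbp5 also stayed called (3.19, adjusted p = 5.06e-05 by the same test). Igfbp3 (0.648, 0.0825) and Igfbp7 (0.493, 0.215) were no longer called with it. The fit with the acinar score called 6333 of all genes. With the macrophage score Igf1 had 2.56 (adjusted p = 0.385), and none of 15661 genes was called in that fit. The acinar, fibroblast and macrophage sums do not overlap between Px and Sham, so the mix of cells and the operation cannot be told apart.

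Igf1r, the receptor of IGF1 and IGF2, was the member that was lowest relative to Sham. It had 23.5, 22.0 and 23.7 CPM in higher-glucose Px, 25.2, 31.5 and 35.1 CPM (lowest, median and highest) in lower-glucose Px, and 62.9, 57.9, 74.2, 69.4 and 86.6 CPM in Sham. No Px library reached the lowest Sham library, and each higher-glucose Px library was below each lower-glucose one. The means were 28.1 ± 4.40 CPM in Px and 70.2 ± 11.1 CPM in Sham, a log2 fold change of -1.32 ± 0.12 (edgeR quasi-likelihood test, adjusted p = 9.67e-08). Of 15661 genes, 277 had a smaller log2 fold change. Beta cell genes, 11 of 11 tested lower in Px, summed to 38680 to 80110 CPM in Px and 88000 to 190700 CPM in Sham. Scaled by 8 endocrine granule genes, Igf1r was still called, at -0.714 (edgeR quasi-likelihood test, adjusted p = 0.000298). With a score as covariate the log2 fold change was -1.40 for acinar genes (edgeR quasi-likelihood adjusted p = 0.000323), -1.72 for fibroblast genes (0.0161) and -1.11 for macrophage genes (0.507). Igf1r lies on chromosome 1 from 128924966 to 129206516 on the plus strand and shares no exon base with another counted gene.

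Insr, the insulin receptor gene, on chromosome 12 from 1680957 to 1816414 on the minus strand, did not pass the test. It had 56.4, 53.4 and 38.6 CPM in higher-glucose Px, 32.9, 42.4 and 51.7 CPM (lowest, median and highest) in lower-glucose Px, and 37.0, 41.2, 41.2, 37.2 and 47.2 CPM in Sham. The ranges overlapped, and the log2 fold change for Px over Sham was 0.11 ± 0.13 (edgeR quasi-likelihood test, adjusted p = 0.469). It turned to -0.583 with library totals alone (adjusted p = 0.00323) and was 0.692 with endocrine scaling (adjusted p = 0.000236). With the fibroblast score in the model Insr was called higher, at 1.17 (edgeR quasi-likelihood test, adjusted p = 0.042).

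The promoter windows of the 2 receptors are printed because one receptor was lower in every Px library and the other was not called. Igf1r is chr1:130959747-130960046 on the plus strand and Insr chr12:6128754-6129053 on the minus strand of GRCr8. Capitals mark GGGCGG in Igf1r and TGTTTAC, the reverse complement of GTAAACA (a FOXO motif), in Insr.
Igf1r: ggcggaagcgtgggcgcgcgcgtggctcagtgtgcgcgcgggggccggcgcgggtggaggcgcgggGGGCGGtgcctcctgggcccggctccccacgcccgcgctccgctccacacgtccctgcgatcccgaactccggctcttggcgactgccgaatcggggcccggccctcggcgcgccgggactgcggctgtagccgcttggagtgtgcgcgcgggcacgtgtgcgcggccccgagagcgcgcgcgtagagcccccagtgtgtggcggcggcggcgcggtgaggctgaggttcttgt
Insr: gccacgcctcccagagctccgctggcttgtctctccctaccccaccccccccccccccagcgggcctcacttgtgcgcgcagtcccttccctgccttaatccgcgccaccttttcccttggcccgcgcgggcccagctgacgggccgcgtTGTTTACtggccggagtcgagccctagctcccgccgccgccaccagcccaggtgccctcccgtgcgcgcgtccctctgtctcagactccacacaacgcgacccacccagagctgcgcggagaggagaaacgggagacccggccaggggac
The Igf1r window was 78.0% G and C and the Insr window 71.3%. No TATAAA was found in either, which says only that these letters are not in these windows.

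The adaptor genes and Akt2 were not called between Px and Sham. Irs1 had 10.8, 9.26 and 9.68 CPM in higher-glucose Px, 9.45, 10.7 and 14.8 CPM (lowest, median and highest) in lower-glucose Px, and 11.6, 11.95, 11.2, 11.9 and 14.03 CPM in Sham. All 3 higher-glucose libraries were below the lowest Sham library, while the lower-glucose range enclosed the Sham range. The log2 fold change of Irs1 for Px over Sham was -0.12 ± 0.12 (edgeR quasi-likelihood test, adjusted p = 0.356).

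Irs2, the adaptor gene tied to beta cell mass in mice, had 136, 72.9 and 105 CPM in higher-glucose Px, 54.2, 63.4 and 94.0 CPM (lowest, median and highest) in lower-glucose Px, and 51.3, 71.8, 65.8, 93.3 and 104 CPM in Sham. Higher-glucose replicates 13 and 19 were the highest of all libraries, and the other libraries overlapped. The log2 fold change for Px over Sham was 0.02 ± 0.21 (edgeR quasi-likelihood test, adjusted p = 0.953).

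Akt2, whose kinase is known for its role in insulin action, had 21.5, 24.3 and 16.6 CPM in higher-glucose Px, 18.4, 20.7 and 23.2 CPM (lowest, median and highest) in lower-glucose Px, and 19.7, 19.3, 20.6, 19.1 and 18.5 CPM in Sham. The log2 fold change for Px over Sham was 0.09 ± 0.09 (edgeR quasi-likelihood test, adjusted p = 0.398), with overlapping ranges. Irs1, Irs2 and Akt2 lie on chromosomes 9 (88033668 to 88086488), 16 (83824430 to 83848684) and 1 (84411726 to 84450162).

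**Figure D1:**
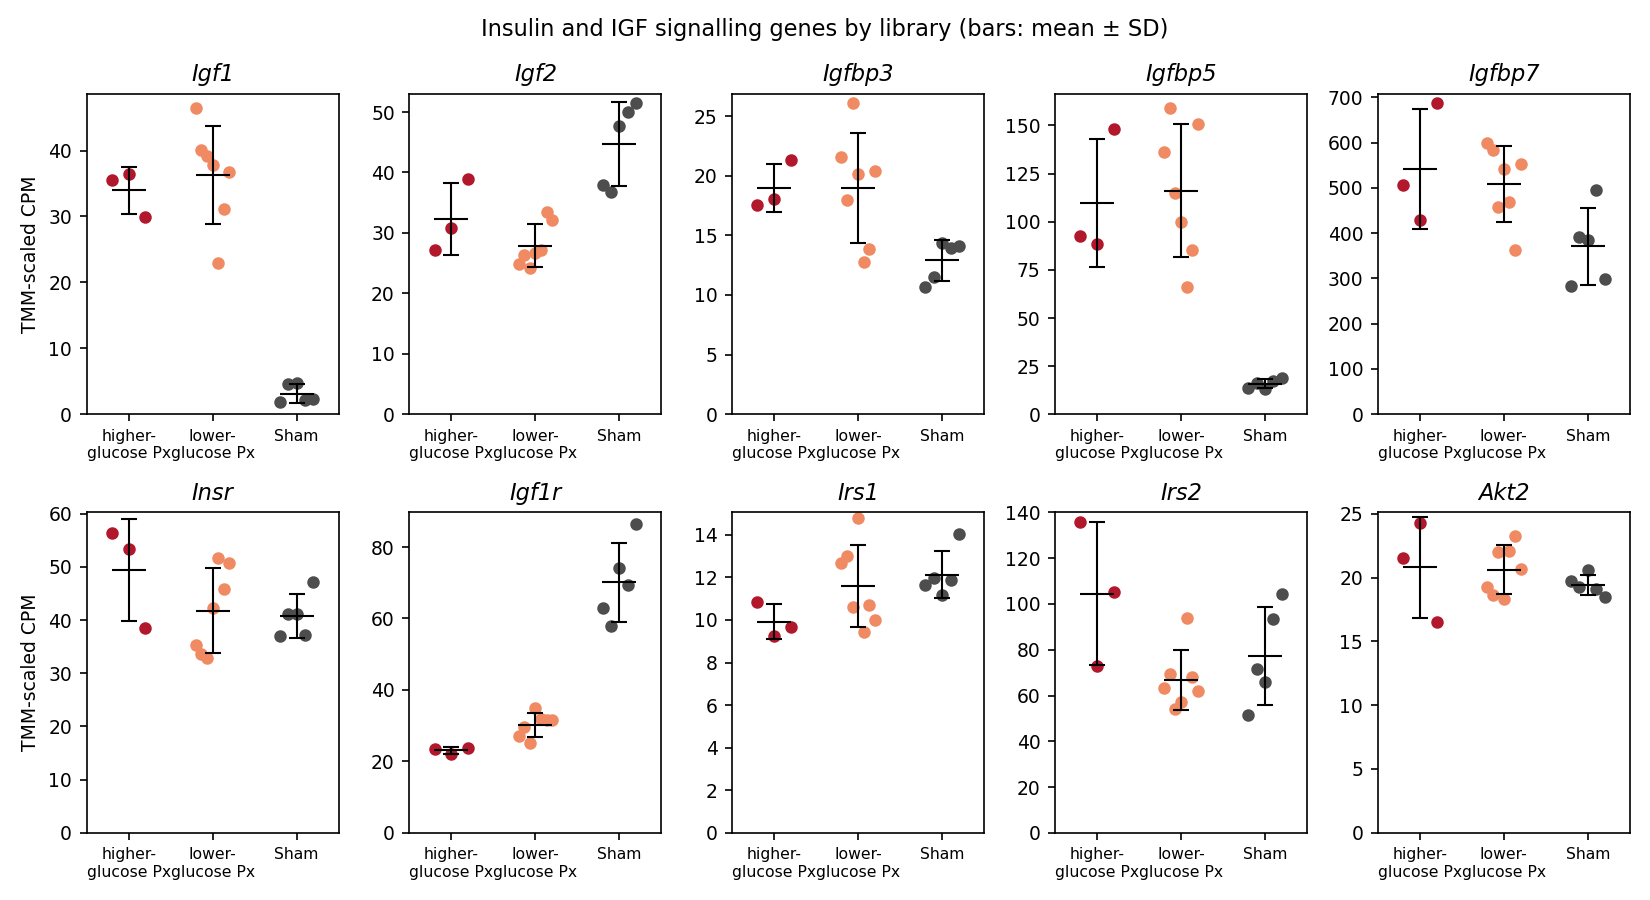
TMM-scaled CPM of the 10 members in each library (points) with the mean and SD of each group (black), for higher-glucose Px (n = 3), lower-glucose Px (n = 7) and Sham (n = 5), each panel on its own scale from 0. Igf1 and Igfbp5 in Px lie above every Sham library and Igf1r lies below every Sham library.

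Over the 10 members, 4 were called higher, 2 lower and 4 not at all between Px and Sham, beside 64.5% of all 15661 tested genes called in either direction (34.6% higher and 29.9% lower). The members' median log2 fold change was 0.101, and that of all genes 0.0323. Igf1, Igfbp5 and Igf1r had no overlap between Px and Sham libraries, beside 36.7% of all genes. Neither share sets the members apart from the table as a whole. The 6 calls held in all 15 fits that left out 1 library. The authors' deposited table lists all 10 members, and 6 had an adjusted p under 0.05, with 4 positive and 2 negative log2 fold changes. Its header names no contrast. It was read as Px over Sham by its signs against these same counts, so its direction is not a separate check.

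Each glucose group on its own called the same members against Sham, in the same direction. In higher-glucose Px against Sham 4 were higher and 2 lower (57.7% of all genes were called, 32.2% higher and 25.5% lower, and 54.3% had no overlap), and in lower-glucose Px against Sham 4 were higher and 2 lower (63.5% of all genes were called, 33.6% higher and 30.0% lower, and 41.5% had no overlap). These comparisons share the Sham libraries. The log2 fold change of Igf1 was 3.43 ± 0.27 in higher-glucose Px and 3.53 ± 0.25 in lower-glucose Px, and that of Igfbp5 was 2.79 ± 0.25 in higher-glucose Px and 2.87 ± 0.23 in lower-glucose Px. For Igf1r it was -1.61 ± 0.14 in higher-glucose Px and -1.22 ± 0.10 in lower-glucose Px, and for Igf2 -0.47 ± 0.15 in higher-glucose Px and -0.69 ± 0.12 in lower-glucose Px. Igf2 in higher-glucose Px was no longer called without higher-glucose replicate 13 (-0.342, edgeR quasi-likelihood adjusted p = 0.11) or 15 (-0.437, 0.0553). Igfbp7 against Sham was lost without Sham replicate 23 or 27 in either glucose group (adjusted p = 0.0649 to 0.0681) and, in higher-glucose Px, without replicate 19 (0.335, 0.211), as was Igfbp3 (0.465, 0.0937). Insr was newly called in higher-glucose Px without replicate 19 (0.431, 0.0497), and Irs2 without replicate 15 (0.638, 0.035) or Sham replicate 27 (0.566, 0.0447).

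**Figure D2:**
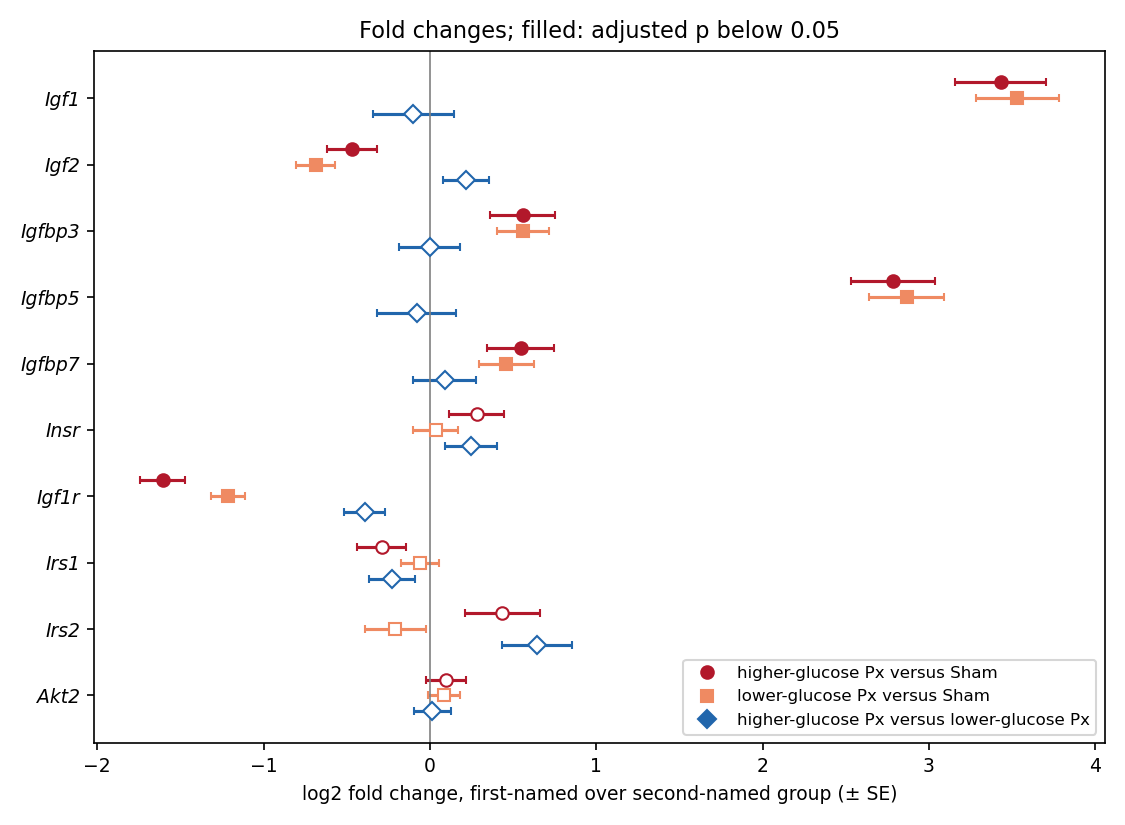
Log2 fold change with SE of each member in 3 comparisons, the first-named group over the second-named, from 1 edgeR fit of 3 groups; filled symbols have an adjusted p below 0.05. The 6 called members stand on the same side in both comparisons with Sham, and no member is filled between the glucose groups.

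Between higher- and lower-glucose Px, none of the 10 members was called at an adjusted p of 0.05. Of all genes 4.88% were called (3.29% higher and 1.59% lower). No Sham library was in this contrast, but the Sham libraries shared its filter, scaling and estimate of the spread. By the edgeR quasi-likelihood test 2 members had an unadjusted p under 0.05, Igf1r and Irs2, while DESeq2 called 1, Igf1r, and limma voom 0. Igf1r averaged 23.1 ± 0.955 CPM in higher-glucose Px and 30.2 ± 3.28 CPM in lower-glucose Px (log2 -0.39 ± 0.12, adjusted p = 0.0792), with no overlap, as in 9.81% of genes. Irs2 averaged 105 ± 31.4 CPM in higher-glucose Px and 66.9 ± 13.1 CPM in lower-glucose Px (log2 0.64 ± 0.21, adjusted p = 0.0893). The Igf1r difference was called with endocrine scaling (-0.617, adjusted p = 0.0109) and in DESeq2 (-0.408, 0.033). The Irs2 difference was called when lower-glucose replicate 11, the lower-glucose rat with the highest glucose (211), was left out (0.744, 0.0432). Across the 7 lower-glucose rats alone, edgeR called a slope on log2 glucose for 0 of the 10 members, of which 0 had an unadjusted p under 0.05 and DESeq2 and limma voom called 0. It called 0 of 15695 genes (0.0%), with 1432 at an unadjusted p under 0.05, 101 called by DESeq2 and 0 by limma voom.

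Ratios of 2 members within a library cannot be moved by library scaling, and 3 were tested, each in 2 comparisons (exact two-sided permutation tests, adjusted over the 6). Counts per exon base of Insr over Igf1r gave a ratio of 0.956 to 1.43 in higher-glucose Px (median 1.41), 0.669 to 0.959 in lower-glucose Px (median 0.769) and 0.315 to 0.419 in Sham (median 0.327). Every Px library was above every Sham library. The ratio was below 1 in every Sham library, in all 7 lower-glucose Px libraries and in higher-glucose replicate 19 (0.956). Insr was thus the less abundant receptor transcript per exon base there. By CPM, not divided by exon length, Insr was above Igf1r in every Px library and below it in every Sham library. The ratio per exon base was above 1 in higher-glucose replicates 13 (1.41) and 15 (1.43). On the log2 scale the mean was -0.125 ± 0.38 in Px and -1.54 ± 0.167 in Sham (SD, n = 10 and 5), a difference of 1.42 (exact permutation p = 0.000666, the smallest that 3003 splits allow; adjusted p = 0.002). Between higher- and lower-glucose Px the log2 difference was 0.632 (exact permutation p = 0.0333, adjusted p = 0.05, at and not under the threshold; the smallest p of 120 splits is 0.0167).

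The ratio of Igf1 over Igf2 was 2.25 to 3.83 in higher-glucose Px, 2.48 to 5.47 in lower-glucose Px and 0.125 to 0.368 in Sham. Igf2 was the more abundant IGF transcript in every Sham library and Igf1 in every Px library. The log2 means were 1.83 ± 0.421 in Px and -2.40 ± 0.735 in Sham, a difference of 4.23 (exact permutation p = 0.000666, adjusted p = 0.002). Higher- and lower-glucose Px differed by -0.284 (exact permutation p = 0.35, adjusted p = 0.42).

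The ratio of Irs2 over Irs1 was 6.48 to 10.3 in higher-glucose Px, 3.19 to 8.19 in lower-glucose Px and 3.63 to 6.47 in Sham. The log2 difference was 0.142 for Px and Sham (exact permutation p = 0.613, adjusted p = 0.613) and 0.831 for higher- and lower-glucose Px (exact permutation p = 0.0333, adjusted p = 0.05). Both differences between the glucose groups at an adjusted p of 0.05 came under it without lower-glucose replicate 11 (0.963 for Irs2/Irs1 and 0.674 for Insr/Igf1r, each with an adjusted p of 0.0357). These ratios can move with the mix of cells, whose markers are given above.

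**Figure D3:**
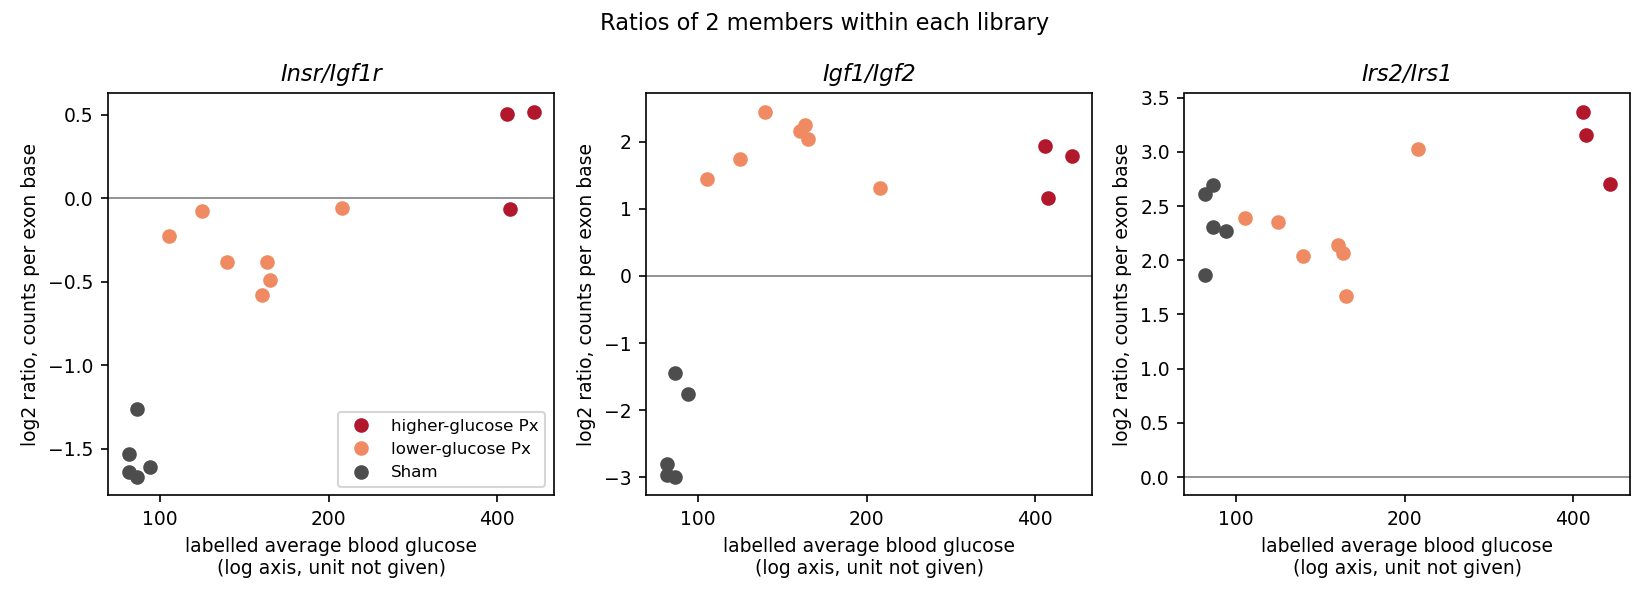
Log2 ratio of counts per exon base for 3 pairs of members in each library, against the labelled average blood glucose on a log axis (unit not given). The Insr/Igf1r and Igf1/Igf2 ratios of all 10 Px libraries lie above those of all 5 Sham libraries, and the 3 higher-glucose libraries lie at the right.

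Per kilobase of exon, the order of mean levels was Igfbp7, Igfbp5, Igf1, Irs2, Akt2, Igfbp3, Igf1r, Insr, Igf2 and Irs1 in Px, and Igfbp7, Igf1r, Irs2, Akt2, Igf2, Insr, Igfbp3, Igfbp5, Irs1 and Igf1 in Sham. Igfbp7 led with 471 CPM per kb in Px and 336 in Sham, far above the next gene in either group. In Px the neighbours from Igfbp5 down to Igf2 overlapped in range, and Igf2 and Irs1 did not. In Sham, Igfbp7 and Igf1r, Akt2 and Igf2, and Igfbp3 and Igfbp5 were the neighbours without overlap. Igf1r moved to place 7 in Px, against place 2 in Sham, and Igf1 to place 3 in Px, against place 10 in Sham.

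Scaling decided part of the calls. The median log2 fold change of all genes for Px over Sham was 0.626 with endocrine scaling, 0.0323 with TMM and -0.607 with library totals, and the calls split as 9432 higher and 729 lower, 5426 and 4681, and 2816 and 8010. Members were called 8 higher and 1 lower with endocrine scaling, 4 and 2 with TMM, and 2 and 6 with library totals. Igf1, Igfbp5 and Igf1r kept direction and call in all 3. Relative to the median of all genes, Igf1r stood at -1.35 with TMM.

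**Figure D4:**
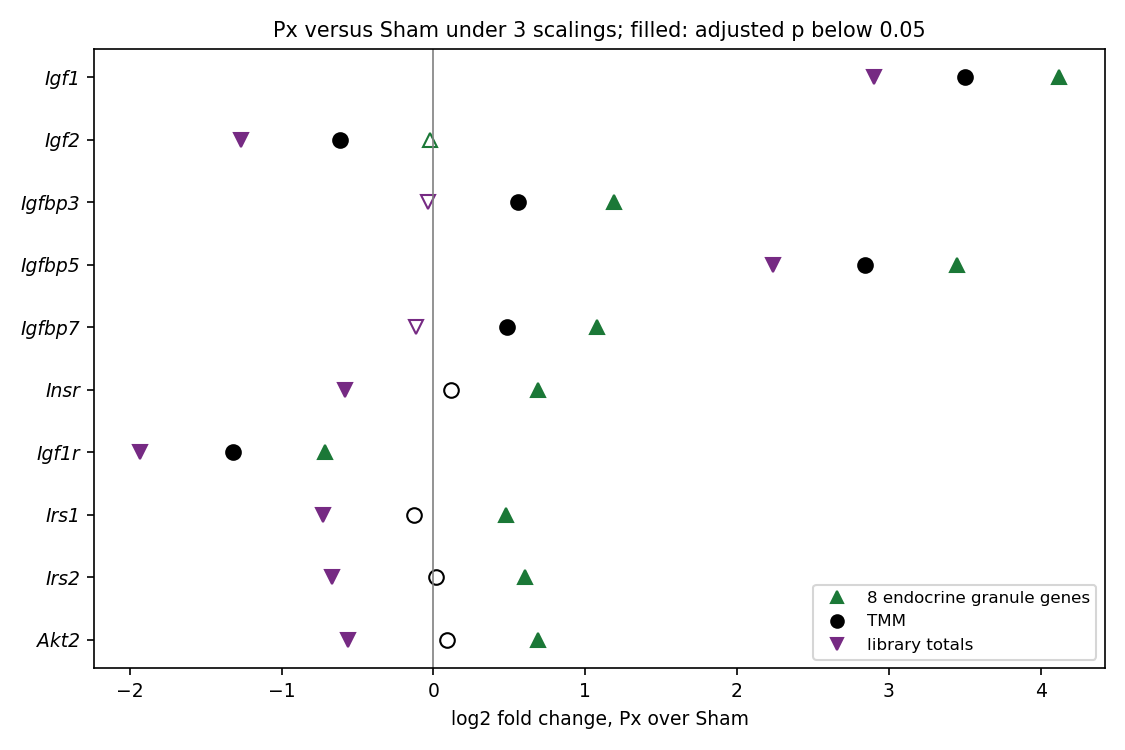
Log2 fold change of each member for Px over Sham under 3 scalings: 8 endocrine granule genes (triangles up), TMM (circles) and library totals (triangles down); filled symbols have an adjusted p below 0.05. Igf1, Igfbp5 and Igf1r are filled on one side in all 3, while Igfbp3 and Igfbp7 cross 0 with library totals and Insr, Irs1, Irs2 and Akt2 are filled on opposite sides.

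The rest of the pathway was read from 7 lists of 74 genes, also chosen with earlier results of these data known. Of these, 69 were tested, with 23 called higher and 26 lower in Px against Sham (64.5% of all genes were called). Of the other binding proteins and their proteases, 5 of 9 were higher and none lower. Igfbp4, a binding protein, averaged 255 CPM in Px and 73.9 CPM in Sham (log2 1.79 ± 0.14), and Stc1, an inhibitor of the IGF-binding-protein protease PAPPA, 13.3 CPM in Px and 4.20 CPM in Sham (1.66 ± 0.20). Igfbp6 had 2065 counts in 10 Px libraries and 15 counts in 5 Sham libraries, so its log2 fold change of 5.76 ± 0.52 rests on few Sham counts. Igfbp2, which lies 5422 bases from Igfbp5, had 1.29 CPM in Px and 0.382 CPM in Sham (1.74 ± 0.46). All adjusted p-values by the edgeR quasi-likelihood test were 0.00326 or lower.

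Of 11 other receptors and adaptors, 2 were higher and 6 lower. Insrr, the insulin receptor-related receptor gene, averaged 236 CPM in Px and 567 CPM in Sham (log2 -1.26 ± 0.17), and Irs3, an adaptor gene of rodents, 4.04 CPM in Px and 8.54 CPM in Sham (-1.08 ± 0.15). Of 12 PI3-kinase and AKT genes, 4 were higher and 6 lower. Pik3cd and Pik3cg, PI3-kinase subunits of leukocytes, were higher: Pik3cd averaged 26.5 CPM in Px and 2.31 CPM in Sham (3.52 ± 0.34), and Pik3cg 13.1 CPM in Px and 1.86 CPM in Sham (2.83 ± 0.34). Macrophage genes, which include the leukocyte gene Ptprc, were higher in Px as given above. With their score as a covariate 0 of the 69 pathway genes were called. That fit called 0 of all 15661 genes, so its count cannot set the pathway genes apart.

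Of 13 mTORC1 genes 3 were higher and 6 lower. Eif4ebp1, an inhibitor of translation that mTORC1 phosphorylates, averaged 18.9 CPM in Px and 4.11 CPM in Sham (log2 2.19 ± 0.27), while Mlst8, a subunit of the complex, averaged 16.5 CPM in Px and 30.4 CPM in Sham (-0.88 ± 0.08). Of 14 inhibitors of the pathway 7 were higher and 4 lower. Grb10, an adaptor that dampens insulin and IGF receptors, averaged 66.5 CPM in Px and 8.99 CPM in Sham (2.89 ± 0.26), Inpp5d, a lipid phosphatase of blood cells, 19.5 CPM in Px and 2.87 CPM in Sham (2.77 ± 0.22), and Socs3, a cytokine-induced inhibitor, 9.16 CPM in Px and 0.762 CPM in Sham (3.57 ± 0.37). Of 9 genes of FOXO factors, GSK3 and other targets of AKT, 2 were higher and 4 lower. The 2 higher genes were neither FOXO nor GSK3 genes. Among the lower was Foxo1, the FOXO factor best known in beta cells, at 27.8 CPM in Px and 63.1 CPM in Sham (-1.18 ± 0.09). Of the IGF2 RNA regulators only Igf2bp2 was tested, and it was not called (-0.0143 ± 0.32).

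**Figure D5:**
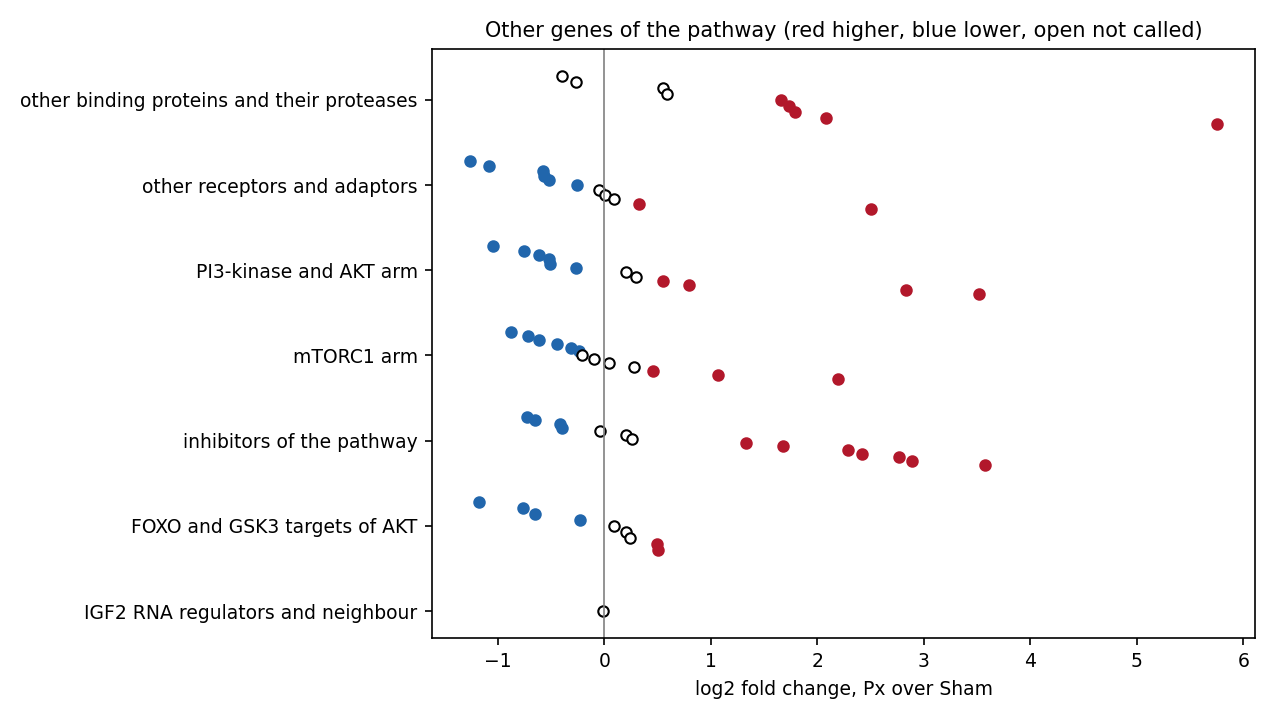
Log2 fold change of Px over Sham for each tested gene of 7 lists, on rows by list; red is called higher, blue lower and open not called. Every list with more than 1 tested gene except the binding proteins holds genes called in both directions.

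Of 28 pathway genes that the naming rule gave for Px over Sham, 21 kept their sign in all 3 scalings. Not all of these 21 kept their call. Mlst8 was -0.283 with endocrine scaling (edgeR quasi-likelihood test, adjusted p = 0.0604). Pdpk1, Gsk3b, Rptor, Tsc1, Phlpp2, Ptprf and Cdkn1b were likewise not called with that scaling. Crk, Mapkap1, Rps6kb2 and Tbc1d1, called higher with TMM, were below 0 with library totals, and Sos1, Pik3ca and Inppl1, called lower with TMM, were above 0 with endocrine scaling. The lists' own split moved from 44 higher and 4 lower with endocrine scaling, over 23 and 26 with TMM, to 15 and 38 with library totals.

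Between higher- and lower-glucose Px, 3 of the 69 pathway genes were called, beside 4.88% of all genes. Pappa2, a protease that frees IGF from binding proteins, averaged 62.9 CPM in higher-glucose Px and 30.7 CPM in lower-glucose Px (log2 1.04 ± 0.24, edgeR quasi-likelihood test, adjusted p = 0.0224). Rheb, the activator of mTORC1, averaged 55.4 CPM in higher-glucose Px and 39.2 CPM in lower-glucose Px (0.50 ± 0.11, adjusted p = 0.0129). Pik3r1, a regulatory subunit of PI3-kinase, averaged 27.9 CPM in higher-glucose Px and 41.7 CPM in lower-glucose Px (-0.58 ± 0.13, adjusted p = 0.0157). The groups did not overlap for any of the 3. Fibroblast genes, 4 of 12 lower in higher-glucose Px, summed to 1424 to 2258 CPM in higher-glucose Px and 2946 to 7268 CPM in lower-glucose Px. Once the fibroblast score entered the model 0 of the 69 pathway genes were called, as were only 54 of all 15661 genes. All 3 calls were lost with library totals alone (adjusted p = 0.162 for Pappa2, 0.953 for Rheb and 0.0636 for Pik3r1) and without higher-glucose replicate 13 (0.113, 0.0655 and 0.0657) or 15 (0.0583, 0.0579 and 0.0609), in the same order. Without higher-glucose replicate 19 Pappa2 (0.0632) and Pik3r1 (0.0735) were lost.

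With the 3 group means removed, the genes that followed each member most closely over the 15 libraries were named by Pearson r of log2 CPM, among 9749 genes, as a description. Igf1r went with Wdr7 (r = 0.945) and Glg1 (0.942), and Insr with Ell2 (0.929). Igfbp5 went with Tm4sf1 (0.932) and Rnf13 (0.923), Igf2 with Selenof (0.914) and Pttg1ip (0.898), and Igf1 with Nupr1l1 (0.877) and Enpp3 (0.867). The libraries share depth and the mix of cells, so these values say nothing of shared control. Among the 45 pairs of members the largest in size were Igfbp5 with Akt2 (-0.684), Igfbp7 with Akt2 (-0.673) and Igf1r with Igf2 (0.647).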

How the data were processed

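Polyadenylated RNA of islets from 10 Px and 5 Sham rats was sequenced; per the labels' protocols RNA came from a miRNeasy kit and libraries from a directional kit. The deposited table holds raw read counts per gene, with positions and exon lengths, per the file headers. FastQC, Subread, featureCounts and limma are named, per the submitters' processing notes; no source gives the genome build, annotation or strand setting. The authors' deposited comparison table holds log2 fold changes, average log2 expression, fold changes (a ratio) and p-values, and was used only where named.

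Low counts were removed with filterByExpr over the 3 groups (minimum count 10, minimum total 15), and TMM gave the scaling. All genes left were tested by the quasi-likelihood method of edgeR 4.0.16 in R 4.3.3, two-sided, with Benjamini-Hochberg adjustment at 0.05. One model with 2 groups gave Px against Sham, one with 3 groups gave the comparisons by glucose, and the 7 lower-glucose libraries gave the slope. Groups were set from the labelled glucose with a boundary of 300. Ratios were compared by exact two-sided permutation. Levels per kb divide CPM by the deposited exon length. Library totals of 12.21 to 33.42 M set the precision. On simulated counts the Px against Sham step recovered 83% of genes changed by 1 and 97% of genes changed by 2 on the log2 scale, and the higher- against lower-glucose step 69% and 97%. Only 100 genes of each size were changed among 15362, with no change in the mix of cells. In the data 64.5% of genes were called between Px and Sham, so these shares may not carry over. Libraries of a group differed by more than sampling noise in all 34 pairs (chi-square per degree of freedom 30.1 to 454), so none was counted as a repeat.

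Pathway genes were named as up to 3 per list and direction for Px against Sham and 2 for higher- against lower-glucose Px by smallest p, past the threshold with a mean of at least 5 CPM; each member has the 2 genes with the highest r on log2 CPM (prior count 2), of which the text gives those of 5 members; 1 gene so named and 1 pathway gene are not reported here. Genes next to or overlapping a member could be named. The members and lists were chosen with earlier results of these data known. Alternatives were other scalings, filters, DESeq2 1.42.0, limma 3.58.1 voom, marker scores as covariates, a glucose boundary of 200 and leaving out libraries; 1 alternative, leaving out the 3 most acinar-rich libraries of Sham and lower-glucose Px, was chosen after seeing the data. Promoter windows and gene starts are RefSeq, GRCr8; 9 of 10 members matched (10 windows), and Irs2 had no entry. Markers were lists of beta, acinar, duct, fibroblast and stellate, endothelial, macrophage, alpha and delta cell genes, with duct genes 7 of 9 higher, alpha genes 2 of 6 higher and delta genes 1 of 4 higher in Px against Sham.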

Additional observations from a re-analysis of the deposited data

Results flagged for a closer look

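Of 26 sets of values checked for a single library far from the rest of its group, 2 stood out, where chance gives about 1 in 20. Irs1 in Sham replicate 27 was 14.03 CPM, above the 11.2 to 11.95 CPM of the other Sham libraries. Irs2 in lower-glucose Px replicate 11 was 94.0 CPM, above the 54.2 to 69.5 CPM of the other lower-glucose Px libraries, and this rat had the highest labelled glucose of its group (211).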

How the results depend on the processing

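The members called between Px and Sham numbered 6 in every fit that left out 1 library, in the fits with DESeq2 size factors, DESeq2, limma voom and the other filters, and without the 3 most acinar-rich libraries of Sham and lower-glucose Px. They numbered 9 (8 higher, 1 lower) with endocrine scaling, 4 with the acinar score as covariate, 3 with the fibroblast score (Igf1, Igf1r and the newly called Insr) and 0 with that of macrophages. In higher-glucose Px against Sham they numbered 4 with the acinar score and 0 with either the macrophage or the fibroblast score, 8 with endocrine scaling or a mean of at least 5 CPM (Insr 0.396, adjusted p = 0.0432, and Irs2 0.55, 0.0422, were gained with this filter), and 5 to 6 without 1 library, not always the same members; in lower-glucose Px against Sham 9 with endocrine scaling, 4, 0 and 0 with the acinar, macrophage and fibroblast scores, and 5 to 6 without 1 library. Of all 15661 genes, higher-glucose Px against Sham called 4689 with the acinar, 14 with the macrophage and 480 with the fibroblast score. Lower-glucose Px against Sham called 6693, 0 and 0 in the same order. The member counts of 0 in these fits therefore cannot set the members apart from all genes. With endocrine scaling the 2 comparisons called 8042 and 10649 genes. Between higher- and lower-glucose Px 1 member was called with endocrine scaling, with DESeq2 and with the macrophage covariate (Igf1r lower), and 0 to 1 without 1 library.

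Signs of members called in at least 1 of the fits compared turned as follows, as log2 fold changes. For Px against Sham with library totals alone they were -0.583 for Insr, -0.665 for Irs2, -0.0346 for Igfbp3, -0.117 for Igfbp7 and -0.565 for Akt2; Irs1 was 0.479 with endocrine scaling, and Igfbp3 was -0.42 with the macrophage and -0.191 with the fibroblast score. For higher-glucose Px against Sham they were -0.762 for Insr, -0.418 for Igfbp3, -0.415 for Igfbp7 and -0.934 for Akt2 with library totals, -0.456 for Igfbp3 with the macrophage score, and -0.656 for Igfbp3 and -0.332 for Igfbp7 with the fibroblast score. For lower-glucose Px against Sham they were -0.512 for Insr and -0.00617 for Igfbp7 with library totals, 0.604 for Irs1 and 0.464 for Irs2 with endocrine scaling, -0.556 for Igfbp3 with the macrophage score, and -1.05 for Igfbp3 and -0.698 for Igfbp7 with the fibroblast score. Members called in neither fit also turned sign, in 14, 7 and 11 further fits of these comparisons (Irs2 in higher-glucose Px was -0.587 and Akt2 in lower-glucose Px -0.432 with library totals) and in 32 between the glucose groups. The cause was not tested.

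Without 1 library the log2 difference in ratio between higher- and lower-glucose Px ran from 0.685 to 1.02 for Irs2/Irs1 and from 0.532 to 0.823 for Insr/Igf1r. The adjusted p of the exact permutation tests ran from 0.0357 to 0.167 for each. Without lower-glucose replicate 11 the differences were 0.963 and 0.674. Leaving out a library lowers the number of splits, and without a higher-glucose library no p under 0.05 can be reached. These p-values therefore cannot test how stable the differences are. For Px against Sham the Insr/Igf1r difference ran from 1.35 to 1.49 and the Igf1/Igf2 difference from 4.08 to 4.46.

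Over all genes, Px against Sham called 6333 with the acinar, 1813 with the fibroblast and 0 with the macrophage score, beside 10107. Higher- against lower-glucose Px called 764, beside 142 with library totals, 418 with endocrine scaling, 1363 with DESeq2, 54 with the fibroblast score, 320 with a glucose boundary of 200, 270 to 983 without 1 library and 1577 without the 3 acinar-rich libraries, where 10 pathway genes were called in place of 3. Pathway calls between the glucose groups numbered 0 with library totals, 0 with the fibroblast score, 1 with the boundary of 200, 5 with the macrophage score, 7 with DESeq2 and 0 to 5 without 1 library. No paired analysis was possible because the replicate numbers of the Px and Sham groups are never shared. The depth limits Igf1 in Sham to 35 to 109 counts per library.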
